A study of Neurospora crassa with 16 samples.

Results

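The HCHC complex of the filamentous fungus Neurospora crassa is a histone deacetylase complex with 4 subunits, and its 4 genes are described here, chosen by their locus identifiers from the 9730 genes counted in the RNA-seq files. They are hda-1 (NCU01525), cdp-2 (NCU00738), hpo (NCU04017, which encodes heterochromatin protein HP1) and chap (NCU01796). The study asked how loss of the histone demethylase LSD1 affects heterochromatin. The RNA came from Δlsd1 strain N5555 of mating type a, in which lsd1 was replaced by hph, and 2 libraries were sequenced from cultures of germinated conidia grown with shaking in Vogel's medium with sucrose at 1.5%, over 16 h and at 32 °C. The comparison strain was wild type N3752, of mating type A per the label of another N3752 sample, whose 2 RNA libraries belong to another series and enter here only as means, given in the authors' deposited tables of changed genes. A gene is called higher or lower here when it is in one of those tables. The series also names a strain with a catalytically null HDA-1. Its label gives the alleles his-3::hda-1*-3xFLAG with the substitution D263N, delta_lsd1::nat-1 and delta_hda-1::hph. Its 2 H3K9me3 ChIP-seq samples were not analysed here, so the values below speak of the transcripts of the complex in a strain whose label lists no change at hda-1.

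In Neurospora heterochromatin, HP1 binds histone H3 trimethylated at lysine 9 (H3K9me3) through its chromodomain. HDA-1 is the subunit that removes acetyl groups from histones, CDP-2 is another chromodomain protein, and CHAP carries AT-hook motifs of a kind that binds AT-rich DNA. HP1 also recruits the DNA methyltransferase DIM-2, in a separate interaction. H3K9 methylation itself is made by DIM-5, within a complex built around a cullin ligase.

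The libraries held 7017726 and 6797672 reads on genes in replicates 1 and 2. The targeted gene, NCU09120 (named lsd1 here from background knowledge, since the reference table has no symbol for it), had 41 and 65 reads in the Δlsd1 libraries. Its normalised mean in the authors' deposited table was 88.7 in Δlsd1, against 675 in wild type. The labels do not say whether the 2 libraries came from separate cultures, so their spread may be technical. In bulk RNA, fewer cells with a transcript and less of it per cell cannot be told apart. Δlsd1 and wild type differ here in mating type and in the series their libraries belong to as well as in lsd1, and these differences cannot be told apart.

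Of the 4 HCHC genes, chap was called higher in Δlsd1, by 2.78-fold, and the other 3 were in neither table. The gene lies on chromosome II from 2387561 to 2389731 (assembly NC12). It had 170 reads in replicate 1 and 153 in replicate 2 of Δlsd1. On the authors' scale, which adds 1 to a count and divides by the library's size factor, these are 267 and 261 normalised counts, a mean of 264 ± 4.57 (SD, n = 2), against a mean of 94.9 in wild type, as the authors' deposited table has it. Both Δlsd1 libraries thus lay far above the wild-type mean, and they lay close to each other. The authors' deposited table gave chap a log2 fold change of 1.48 with p = 7.92e-08 and an adjusted p = 2.18e-06. Set against that mean from the authors' deposited table, replicate 1 alone stood at 1.49 on the log2 scale and replicate 2 alone at 1.46. The spread between the wild-type libraries is not known here, since the table gives only their mean. Over the 8692 genes with a read in Δlsd1 or an entry in the tables, 3.51% were called higher and 8.69% lower, so 1 higher call among 4 genes is a description of chap and says nothing of the complex as a set.

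**Figure D1:**
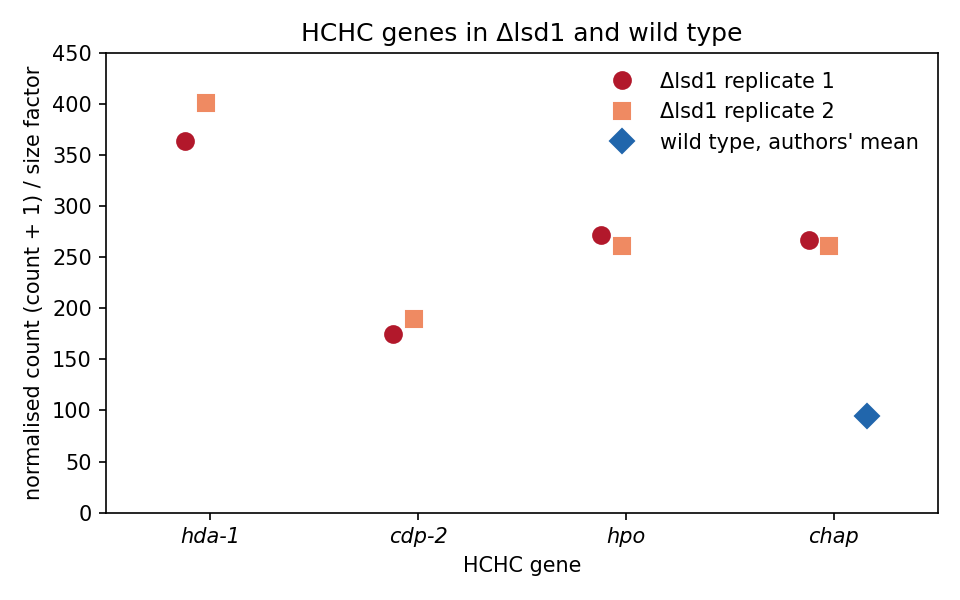
Normalised counts (linear axis from 0) of the 4 HCHC genes in Δlsd1 replicate 1 (circles) and replicate 2 (squares), with the authors' wild-type mean (diamond) for chap, the one gene that their tables hold. At chap the Δlsd1 libraries stood at 267 and 261, against 94.9 in wild type, and at the other 3 genes the Δlsd1 libraries lay close together with no wild-type value beside them.

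Among the 305 genes called higher in the authors' deposited table, chap ranked 74th by log2 fold change, above the table's median of 1.25. It ranked 192nd by mean normalised count, taken here as the average of the Δlsd1 and wild-type means. Among the 33 of them that carry a gene symbol it ranked 7th by log2 fold change. The authors' adjusted p placed it 93rd of 305. The change at chap was therefore in the upper part of the higher genes by size and was not among the extremes.

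**Figure D2:**
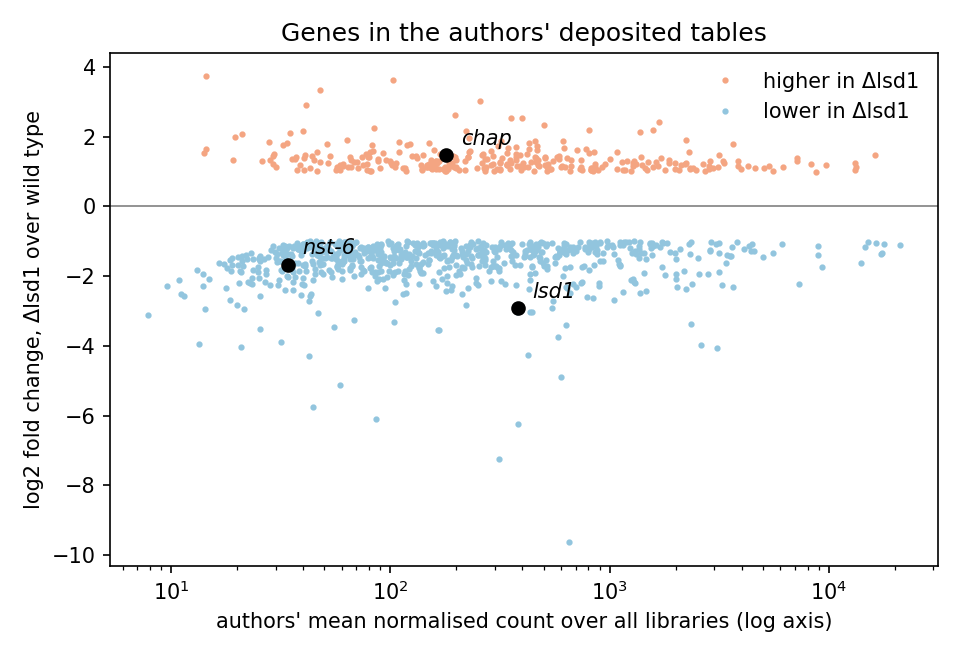
Log2 fold change (Δlsd1 over wild type) against mean normalised count (log axis) for the 1060 genes of the authors' deposited tables, each point a gene. The mean is the average of the tabled Δlsd1 and wild-type means, and stands on the axis for the mean over all libraries. The marked genes are chap at 1.48, nst-6 at -1.67 and lsd1 at -2.93, and the empty band around 0 is there because the tables hold only changes of at least 2-fold.

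The gene of the catalytic subunit, hda-1, is on chromosome II from 3188786 to 3192710. Replicate 1 held 232 reads of it and replicate 2 held 236, which is 33.9 ± 2.39 CPM (SD, n = 2), where CPM is a read count relative to the library's total, scaled between libraries by the trimmed mean of M values. The chromodomain gene cdp-2, on chromosome I from 7370870 to 7373518, had 111 reads in each library, or 16.1 ± 0.938 CPM (SD, n = 2). The HP1 gene hpo, on chromosome VI from 2457115 to 2459498, had 173 and 153 reads in replicates 1 and 2, or 23.6 ± 0.672 CPM (SD, n = 2). On the same scale chap stood at 23.4 ± 0.378 CPM (SD, n = 2). Each of the 4 genes thus had 111 reads or more in both Δlsd1 libraries.

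The absence of hda-1, cdp-2 and hpo from the tables bounds their change only loosely. Every tabled gene differed by 2-fold or more, and the largest unadjusted p among them was 0.0497, so a gene outside the tables may have changed by less than 2-fold or with a larger p, and its wild-type level is not known here. Genes of a like level did enter the tables. Around hda-1, 1576 other genes had a Δlsd1 mean within a factor of 1.5 of its own. Of these, 64 (4.06%) were called higher and 88 (5.58%) lower in the authors' deposited tables. For cdp-2 the counts were 62 higher (4.17%) and 119 lower (8.00%) of 1488 genes, and for hpo 70 higher (4.41%) and 100 lower (6.30%) of 1587. Over all genes 3.51% were called higher and 8.69% lower, so these counts lie near the background and say nothing particular of the members. The smallest called changes at like level were 1.01 around hda-1 and hpo and 1.00 around cdp-2, on the log2 scale of the authors' deposited tables. The 2-fold limit of those tables fixes these values, so they do not show how small a change could be seen.

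No HCHC gene passed the test for a difference between the Δlsd1 libraries. The log2 ratio of replicate 2 to replicate 1 was 0.14 for hda-1 (95% interval -0.12 to 0.41), 0.12 for cdp-2 (-0.27 to 0.51), -0.06 for hpo (-0.38 to 0.26) and -0.03 for chap (-0.36 to 0.29). Exact binomial tests, adjusted over all 7319 genes with at least 10 reads in each library, gave adjusted p from 0.497 for hda-1 to 0.945 for chap. By the same test 27.1% of those genes differed between the libraries. The intervals cover counting error only. Each holds the ratios between libraries that the read counts of that gene allow, and it is not a limit of what the test can detect.

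Per length of annotated span, cdp-2 stood lowest of the 4 genes in both libraries, and the order of the other 3 was not settled. Dividing CPM by the annotated span gave chap 10.9 and 10.6 CPM per kb in replicates 1 and 2. The next gene, hpo, had 10.1 and 9.68 CPM per kb. For hda-1 the values were 8.21 and 9.07 CPM per kb, and for cdp-2 5.82 and 6.32 CPM per kb. The means of the 4 genes thus ran from 6.07 (cdp-2) to 10.8 (chap) CPM per kb. They lay close to or below the median of 10.4 CPM per kb over the 7319 genes. Their means stood at the 50.9th (chap), 48.7th (hpo), 44.8th (hda-1) and 34.8th (cdp-2) percentile of those genes.

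The lowest place of cdp-2 was the one step that exceeded counting error in both libraries. Per kb, hda-1 was 1.41 times as high as cdp-2 in replicate 1 (95% exact binomial interval 1.12 to 1.79) and 1.43 times in replicate 2 (1.14 to 1.81). For chap over cdp-2 the ratios were 1.87 (1.46 to 2.40) and 1.68 (1.31 to 2.17). The neighbours chap and hpo could not be separated, with ratios of 1.08 (0.868 to 1.34) and 1.10 (0.872 to 1.38). Of hpo over hda-1 the ratio was 1.23 in replicate 1 (1.002 to 1.50) and 1.07 in replicate 2 (0.865 to 1.31). That is barely past counting error, and in replicate 1 alone, so the order of hpo and hda-1 is not settled either. Of chap over hda-1 the ratio was 1.32 in replicate 1 (1.08 to 1.62) and 1.17 in replicate 2 (0.950 to 1.44), likewise past counting error in replicate 1 alone. The annotated span of hda-1 also shares 788 bases (3188786 to 3189573) with NCU01526, which had 40 and 25 reads, and whether reads there were counted depends on a strand setting that is not known here. Dividing by the unshared 3137 bases of hda-1, with all its reads kept, gave 10.8 ± 0.761 CPM per kb (SD, n = 2). With the whole span it was 8.64 ± 0.608. The higher value, level with chap, holds only if none of those reads lay in the shared bases, and is otherwise too high. Spans include introns, and the reference table lists 2 transcripts for cdp-2 and 1 for each of the others.

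**Figure D3:**
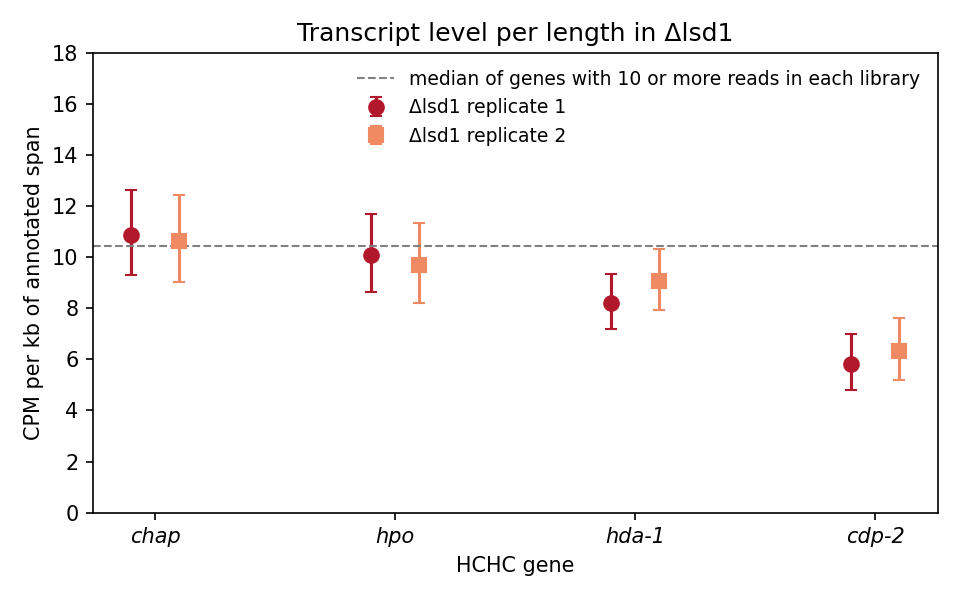
CPM per kb of annotated span (linear axis from 0) for the HCHC genes in Δlsd1 replicate 1 (circles) and replicate 2 (squares), with 95% Poisson counting intervals as bars and the median of 7319 genes as a dashed line. The intervals of chap and hpo overlap throughout, and cdp-2 lies lowest, at 5.82 and 6.32 CPM per kb.

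The level of chap per kb was set beside those of the other subunits' genes on the authors' scale, over whole annotated spans. There chap had 122 normalised counts per kb in Δlsd1, against 43.7 in wild type from the authors' deposited table. In Δlsd1 hpo stood at 112, hda-1 at 97.5 and cdp-2 at 68.8 normalised counts per kb. The wild-type mean of chap thus lay below the Δlsd1 level of each of the other members. Wild-type levels of the other 3 were not analysed here, so the order within wild type is not known.

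The genes of the authors' deposited tables with the pattern most like chap over 3 values (replicate 1, replicate 2 and the wild-type mean, each gene centred on its own log2 mean) were NCU03029, NCU11356 and NCU16624. Their Euclidean distances from chap were 0.0450, 0.0508 and 0.0552 on the log2 scale. By the authors' deposited table, NCU03029 had normalised means of 330 in Δlsd1 and 122 in wild type. NCU11356 had 505 in Δlsd1 and 174 in wild type, and NCU16624 had 667 in Δlsd1 and 250 in wild type, both by the authors' deposited table. With 3 values, 1 of them a mean, likeness of this kind is a description of similar fold change and similar libraries. The members outside the tables have no wild-type value, and no likeness was computed for them.

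None of the 24 genes of 4 related lists was called higher and 1 was called lower, against the shares of 3.51% and 8.69% over all genes. The first list is the machinery that makes or limits the H3K9me3 and DNA methylation that HP1 reads or helps to place. Of its 8 genes 0 were called in either direction. The H3K9 methyltransferase gene dim-5 had 35 reads in each Δlsd1 library, while dim-7 and dim-8, which encode other subunits of its complex, had 201 and 181 (dim-7) and 276 and 222 (dim-8). The DNA methyltransferase gene dim-2 had 114 and 104 reads in replicates 1 and 2. The cullin gene cul-4 stood highest of the list, at 15.2 CPM per kb, and dim-2 lowest, at 2.77 CPM per kb. Both dmm-1 and dmm-2, whose products limit the spread of heterochromatin, were in neither table, with 111 and 115 reads for dmm-1 and 151 and 178 for dmm-2.

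Of the 3 other histone deacetylase genes in the hda series, hda-2, hda-3 and hda-4, none was called. Per kb, hda-4 (16.1 CPM per kb) lay above hda-1, and hda-2 (4.48 CPM per kb) and hda-3 (0.982 CPM per kb) lay below it. With 15 and 29 reads in replicates 1 and 2, hda-3 had a log2 ratio between libraries of 1.07 (exact binomial adjusted p = 0.0752). The hda-4 gene had 502 and 575 reads and differed between the libraries (log2 ratio 0.31, exact binomial adjusted p = 0.00214).

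Of the 7 sirtuin genes, nst-1 to nst-7, which encode deacetylases of the SIR2 family that use NAD, nst-6 was called lower. It had 10 and 8 reads in replicates 1 and 2 of Δlsd1. The authors' deposited table gave nst-6 a log2 fold change of -1.67 with an adjusted p = 0.0176. The other 6 were in neither table, and among them nst-5 stood highest at 74.2 CPM per kb. The gene nst-1 had 611 and 880 reads and differed between the libraries (log2 ratio 0.65, exact binomial adjusted p = 2.77e-16). None of the 6 acetyltransferase genes (hat-1, hat-2, hat-4, hat-5, hat-6 and ngf-1, the homologue of yeast GCN5) was called. Their levels ran between 2.26 and 21.9 CPM per kb. Of the 23 related genes with at least 10 reads in each library, 5 differed between the Δlsd1 libraries by the exact binomial test, beside 27.1% of all genes tested.

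**Figure D4:**
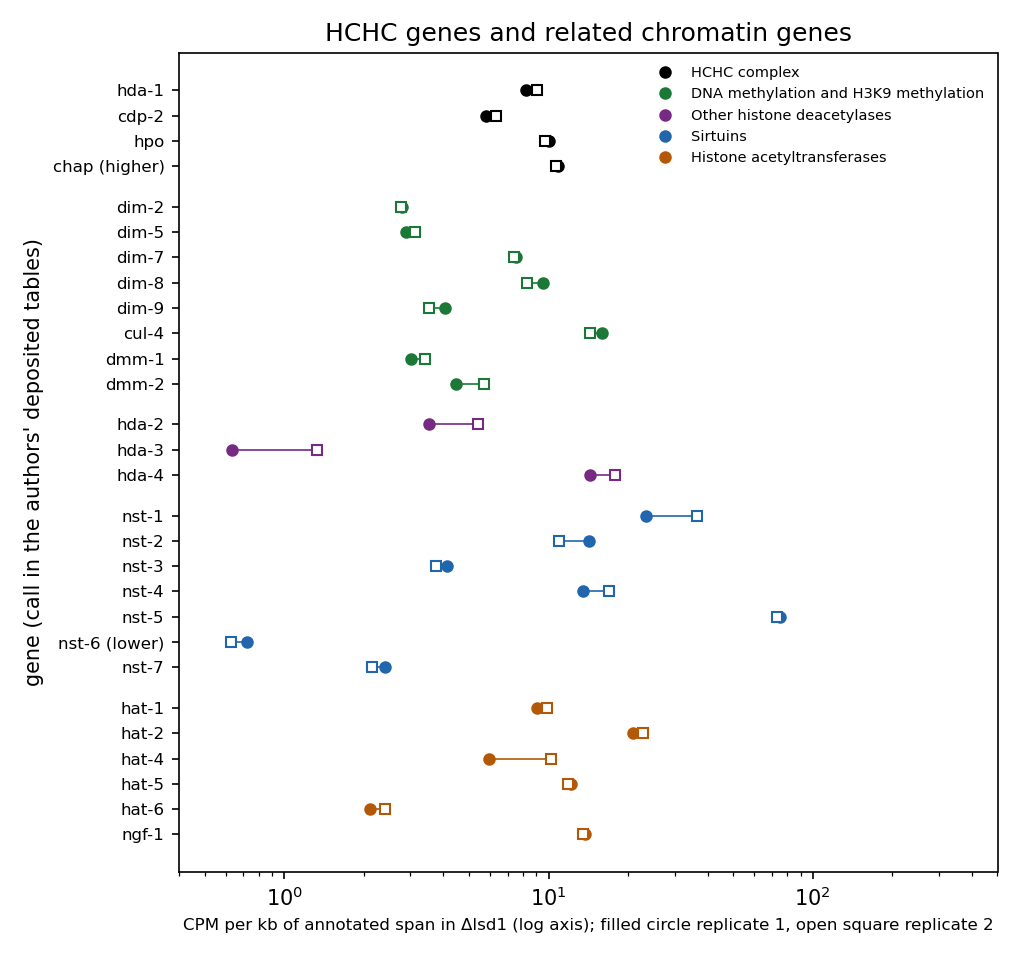
CPM per kb of annotated span (log axis) in Δlsd1 replicate 1 (filled circles) and replicate 2 (open squares) for the 4 HCHC genes and 24 related chromatin genes, with the line joining the replicates and calls of the authors' deposited tables in brackets. The labels show 1 higher gene, chap, and 1 lower gene, nst-6. The replicates of the HCHC genes lie closer together than those of hda-3, nst-1 or hat-4. Those of dim-2, dim-7 and ngf-1 lie closer together than those of any HCHC gene, so close replicates are not particular to the complex.

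The 4 genes lie apart from each other, on chromosomes I, II and VI, and none overlapped or lay within 10 kb of the 250 deposited regions. Over all genes with a position, 2.43% overlapped a region and 12.6% lay within 10 kb, so a count of 0 among 4 lies near the background. The nearest region to chap was 144 kb away, that to hpo 103 kb and that to hda-1 267 kb, against a median of 65.5 kb over all genes. At cdp-2 a region of 2133 bases began 16.4 kb downstream in the chromosome's numbering (chromosome I, 7389960 to 7392092), and 18.3% of genes lay nearer to one. That region overlapped the start of NCU00730 in the same numbering (7391559 to 7394977), which had 8 and 7 reads in replicates 1 and 2 and stood at -1.51 on the log2 scale in the authors' deposited table (adjusted p = 0.0771). Between cdp-2 and that region lay 6 genes. No source used here says how the regions were called or on which samples.

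No gene around chap was called. Of the 10 nearest genes, 5 on each side, 0 were in either table. The adjacent NCU01795, which starts 210 bases past the end of chap, had 187 and 173 reads in replicates 1 and 2, and NCU16553, 364 bases before its start, had 7 and 17. Around all 4 members, 0 of 40 neighbours were called higher and 1 was called lower, beside 3.51% and 8.69% of all genes. That gene was NCU01524, 713 bases past hda-1, with 18 and 30 reads, and the authors' deposited table put its change at -1.02 on the log2 scale (adjusted p = 0.0624). The other adjacent genes were in neither table. They were NCU01526 beside hda-1, NCU00739 (0 reads in both libraries) and NCU00737 (266 and 212 reads) beside cdp-2, and NCU17116 (158 and 105) and NCU04018 (53 and 36) beside hpo.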

How the data were processed

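Polyadenylated RNA was sequenced from 2 Δlsd1 libraries made with a stranded kit, per the labels' protocols. The series' other 14 samples were not analysed here. The deposited files hold raw read counts for 9730 genes. Bowtie2, DESeq2 and deepTools are named, per the submitters' processing notes. The sources used here give no versions, counter, strand setting or build. Rows that name no gene stayed out of library sizes: reads outside genes were 12.3% and 12.7% of the counted reads in replicates 1 and 2, reads with several alignments 3.74% and 3.38%, and reads on overlapping genes 0.117% and 0.0879%.

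The authors' deposited tables give mean normalised counts per strain (a signal), the ratio between them, the log2 of that ratio, and p-values before and after adjustment, per the file headers. Their direction was read from the values. The deposited Δlsd1 means of all 1060 tabled genes came back from the counts as (count + 1) over size factors of 0.640 and 0.591, with a largest relative error of 5.11e-15. The deposited region list holds positions (unit other) and no score. Without wild-type counts no count model was fitted across strains.

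CPM was scaled with edgeR 4.0.16 (TMM over genes that reach 10 counts in each library) in R 4.3.3. Differences between libraries were tested with exact two-sided binomial tests and Benjamini-Hochberg adjustment over all 7319 genes. The test was tried beforehand on simulated counts whose only noise was counting error. That trial does not cover further spread between real libraries. DESeq2 1.42.0 size factors were an alternative. Python 3.11.15, scipy 1.17.1 and pandas 2.3.3 did the rest. Symbols and spans came from RefSeq's NC12 table, which matched 9729 of 9730 identifiers. It gives no coding lengths, so levels per kb use the annotated span. The region list's supercontigs 1 to 7 were taken as chromosomes I to VII by number.

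The members and the lists were chosen with earlier results of these data known. The text names the 4 members, lsd1, called members of the related lists with up to 4 others of each, adjacent and called neighbours among 5 on each side, and the 3 tabled genes most like a tabled member. Beyond that rule, cul-4, dmm-1, dmm-2, nst-5, hat-6, ngf-1 and NCU00730 were named after their values were seen, and the comparison with genes of a like level was added then. Numbers of reads limit precision, and intervals cover counting error only.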

Additional observations from a re-analysis of the deposited data

How the results depend on the processing

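The log2 fold change of chap was 1.47 without the added 1, and 1.46 to 1.49 with either Δlsd1 library left out and the wild-type mean kept as the authors' deposited table has it. Both calls among the HCHC genes and the related lists, chap and nst-6, had an adjusted p under 0.05 in the authors' deposited tables, and nst-6 stood at -1.59 with replicate 1 alone and -1.76 with replicate 2 alone on the log2 scale, set against its wild-type mean there. The genes in neither table have no wild-type value here, so no alternative threshold or left-out library could be tried on them. With 2 neighbours on each side instead of 5, 1 was still called lower and 0 higher. That neighbour, NCU01524, had an adjusted p of 0.0624 in the authors' deposited tables, so it would not be called at 0.05. Genes enter those tables with an adjusted p of up to 0.170. Mean levels of the 4 genes in CPM moved by less than the spread between libraries under plain totals, DESeq2 size factors and TMM over all genes with a read. With 2 libraries, a change of scaling raises 1 of them as it lowers the other, so this mean could hardly move and the check decides little. An alternative chosen after seeing the data was the span that hda-1 does not share with a neighbour. It put hda-1 at 10.8 CPM per kb in place of 8.64, since the length is shorter. No read was taken out for the shared bases, so 10.8 is too high if any read there was counted. None of the 4 genes passed the test between libraries under any scaling, filter or tool run, with adjusted p of 0.497 or more. Over all genes, 1983 differed by the exact binomial test and 40 by edgeR's exact test with the common dispersion, which adds the spread between these same libraries to the noise. Coding length was not run as the length, because the reference table gives none. No paired analysis was possible because a single group has count files. Depth limits a member's difference between libraries to what 111 to 236 reads can show, and the spread between wild-type libraries is not known here.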
